A study of Caenorhabditis elegans with 2 samples.

Results

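Ribosomal protein genes encode the proteins that, with ribosomal RNA, build the large and small subunits of the cytosolic ribosome. Members were the nuclear protein-coding genes of the Ensembl annotation for WBcel235 (the assembly of build ce11) whose name starts with rpl- or rps- and a digit. This gave 78 of 19973 genes, 47 of the large subunit (rpl) and 31 of the small subunit (rps). Regions enriched in chromatin immunoprecipitation sequencing (ChIP-seq) came from Caenorhabditis elegans that make a tagged form of the nuclear hormone receptor NHR-28. Strain OP317 carries the mutation unc-119(ed3) on chromosome III and the insertion wgIs317, which supplies the receptor joined to eGFP, a green fluorescent protein. The labels do not give its promoter. The labels name nhr-28 as the target of the antibody. Whole L3 larvae of both sexes were used, in 2 biological replicates that form 1 group, with no second strain, stage or treatment. Signal in whole larvae comes from all tissues together. Neither the control that the labels name nor ChIP of another factor was analysed here, so dependence of the signal on the receptor was not tested.

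Nuclear hormone receptors are transcription factors that bind DNA through zinc fingers, and worms have a large family of them, many related to the vertebrate receptor HNF4. Ribosomal protein genes are among the most highly transcribed genes of a growing larva, and every ribosome needs an equal number of nearly all of these proteins. Many worm messages, those of ribosomal proteins among them, receive a short spliced leader at their 5′ end. The annotated start of such a gene can therefore lie downstream of the place where transcription begins.

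The stretches around the summits of the family's 5 strongest regions are shown because they carry its highest signal. They were read from the RefSeq copy of assembly WBcel235 on the strand of the gene, 5′ to 3′, cover up to 200 bases around the summit, and lie upstream of the annotated start and outside annotated exons. Capitals mark matches to CGCTCCAC or AAGTGTAT on either strand.
rpl-3 (chrIII:3867460-3867659, plus strand): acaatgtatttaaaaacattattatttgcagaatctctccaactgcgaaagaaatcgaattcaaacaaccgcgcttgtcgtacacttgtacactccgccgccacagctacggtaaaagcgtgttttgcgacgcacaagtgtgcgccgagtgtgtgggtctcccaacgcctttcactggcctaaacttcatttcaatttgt
rpl-20 (chrIV:4749962-4750161, minus strand): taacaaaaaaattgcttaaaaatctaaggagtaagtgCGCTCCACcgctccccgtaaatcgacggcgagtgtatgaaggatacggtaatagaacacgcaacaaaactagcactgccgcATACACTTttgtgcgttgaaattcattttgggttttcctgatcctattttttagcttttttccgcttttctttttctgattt
rpl-15 (chrIV:654815-655014, minus strand): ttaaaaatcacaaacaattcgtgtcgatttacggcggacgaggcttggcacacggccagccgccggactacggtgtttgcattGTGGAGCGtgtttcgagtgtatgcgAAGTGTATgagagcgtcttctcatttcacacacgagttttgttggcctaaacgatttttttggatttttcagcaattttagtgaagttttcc
rpl-35 (chrIII:7854612-7854811, plus strand): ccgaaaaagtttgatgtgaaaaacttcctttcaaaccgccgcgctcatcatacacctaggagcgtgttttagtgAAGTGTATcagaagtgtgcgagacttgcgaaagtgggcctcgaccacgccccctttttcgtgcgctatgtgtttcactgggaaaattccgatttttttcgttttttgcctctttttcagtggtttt
rpl-12 (chrIV:13240652-13240820, minus strand): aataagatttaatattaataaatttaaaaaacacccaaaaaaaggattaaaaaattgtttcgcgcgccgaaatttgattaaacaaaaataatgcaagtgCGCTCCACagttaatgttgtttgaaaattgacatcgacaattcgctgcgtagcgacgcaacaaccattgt

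These 2 words were picked after the sequences had been seen, as the 8-letter words found in at least 4 of the 11 final regions of ribosomal protein genes and in under 2% of the other promoter regions of the pooled list. CGCTCCAC was in 5 of the 11 regions, those of rpl-20, rpl-15, rpl-12, rps-15 and rps-1. AAGTGTAT was in 4, those of rpl-20, rpl-15, rpl-35 and rps-1. Since the rule chose the words on these regions, their counts there describe the choice. The middle of all 9 matches lay 3 to 59 bp from the summit, with a median of 22 bp, in regions that reach 170 bp to either side. These matches lay in 6 regions, of which 3 held both words. Positions of the words in other regions were not read, so no conclusion is drawn from this distance. In the 34 weaker regions of ribosomal protein genes, which the choice did not use, CGCTCCAC was in 1 (2.94%) and AAGTGTAT in 0. Among 5438 other promoter regions of the pooled list they were in 0.919% and 1.6%, values that the rule held under 2%. The 151 other final regions held CGCTCCAC in 3.31% and AAGTGTAT in 0%. The region of rpl-3, the strongest of all the members, held neither word.

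The strongest regions of the data set included the promoters of several ribosomal protein genes, while others of the family had no region at all. A gene is called bound if the summit of a region of the authors' final list lay from 1000 bp upstream to 500 bp downstream of its annotated start. By this rule 11 of 78 ribosomal protein genes (14.1%) were bound, against 0.561% of all 19973 genes. The final list held 162 regions, which were the 162 strongest of the 20876 regions called on the pooled reads. Each region has a signal, the authors' own value against a control, whose scale is not stated. It is used here to rank regions within 1 list, and the signals of the replicates were not averaged. Read depth is unknown, because the lists hold no counts.

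Of the large subunit, 6 of 47 genes were bound. The gene rpl-3, whose protein reaches into the catalytic centre of the ribosome, had the region at chromosome III from 3867390 to 3867729, with its summit at -294 bp relative to the start. Its signal was 127.6 in the pooled list, 45.7 in replicate 1 and 81.8 in replicate 2, which placed it at rank 3, rank 18 and rank 4. The gene rpl-20 (chromosome IV, 4749892 to 4750231) had signals of 121.2, 31.6 and 86.9 in the same order, at ranks 4, 30 and 3. These 2 genes stood at the top of the family in all 3 lists.

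The next genes were rpl-15, with signals of 95.3, 28.9 and 65.4 (chromosome IV, 654745 to 655084), and rpl-35, with signals of 77.7, 27.5 and 51.3 (chromosome III, 7854542 to 7854881). The protein of rpl-35 sits at the exit of the tunnel through which the new peptide leaves. Their ranks were 13 and 20 in the pooled list, 32 and 35 in replicate 1, and 13 and 20 in replicate 2. The gene rpl-12, for a protein at the base of the ribosomal stalk where translation factors bind, had signals of 63.8, 17.3 and 46.8 and ranks of 30, 92 and 23 (chromosome IV, 13240551 to 13240890). Its summit, at -70 bp, was the nearest to the start among the 11 bound members. The last of the large subunit, rpl-7A, differed between the replicates. It ranked 96 in the pooled list with a signal of 38.7 and 62 in replicate 2 with 31.7, but 7462 in replicate 1 with 6.76 (chromosome IV, 4390528 to 4390867).

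Of the small subunit, 5 of 31 genes were bound. The gene rps-19, whose human counterpart is mutated in Diamond-Blackfan anaemia, had signals of 59.8 in the pooled list, 16.5 in replicate 1 and 41.5 in replicate 2 (chromosome I, 9625927 to 9626266). For rps-15 these were 56.3, 20.2 and 32.1 (chromosome I, 8816422 to 8816761). For rps-20 they were 49.2, 15.7 and 33.5 (chromosome I, 14469189 to 14469528). The proteins of rps-15 and rps-20 belong to the head of the small subunit. These 3 genes held ranks of 37, 41 and 52 in the pooled list, and all stood within the strongest 162 of either replicate.

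The remaining bound genes of the small subunit were strong in 1 replicate and weaker in the other. The gene rps-1 had signals of 42.1, 11.1 and 27.3 and ranks of 76, 768 and 88 (chromosome III, 4475457 to 4475796). The gene rps-12 had signals of 39.0, 20.7 and 18.8 and ranks of 92, 58 and 410 (chromosome III, 5678977 to 5679316). It was the only bound member that ranked higher in replicate 1 than in replicate 2. Among the 11 bound members, 9 were within the strongest 162 regions of replicate 1 and 10 within those of replicate 2. The list of replicate 1 includes 16 mitochondrial regions, 15 of them among its strongest 162.

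**Figure D1:**
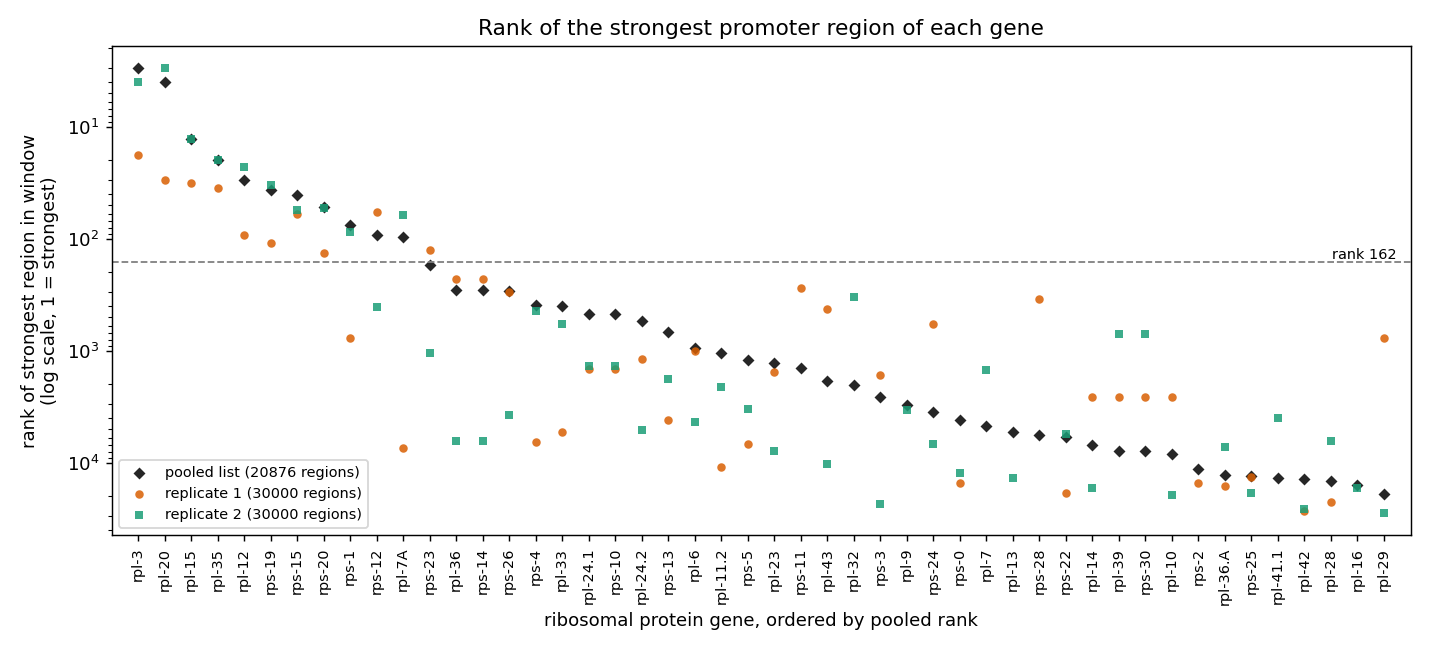
Rank of the strongest region in the window for the 48 ribosomal protein genes with a region in the pooled list (log axis, 1 is the strongest, genes ordered by pooled rank). Diamonds are the pooled list, circles replicate 1 and squares replicate 2, with no point where a replicate had no region. The 11 leftmost diamonds lie above the line at rank 162, while rpl-7A and rps-1 in replicate 1 and rps-12 in replicate 2 lie below it.

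The 37 members with a pooled region outside the final list began just below its limit. The weakest final region had a signal of 32.8. The nearest member below it was rps-23, for a protein of the decoding centre, with a pooled signal of 32.1 and rank 172. It ranked 125 in replicate 1 and 1054 in replicate 2. Next came rps-14 and rpl-36, a divergent pair of genes that shared 1 region at rank 285 (signal 27.9). This region ranked 228 in replicate 1 and 6384 in replicate 2. The gene rps-26 was at rank 296 with a signal of 27.7, and ranked 302 and 3763 in the replicates. These 4 genes thus stood higher in replicate 1.

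The order was the opposite for rps-4 and rpl-33, which had pooled ranks of 394 and 398 and signals of 25.7 and 25.6. They ranked 6505 and 5280 in replicate 1 but 438 and 581 in replicate 2. A second divergent pair, rps-10 and rpl-24.1, shared 1 region at pooled rank 466 (signal 24.8), which ranked 1458 and 1378 in the replicates and so stood alike in both. The remaining such pair, rpl-39 and rps-30, shared a region at pooled rank 7911.

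The share of ribosomal protein genes with a region stood above that of all genes at each number of pooled regions taken. Among the strongest 1000 regions, 22 of 78 members (28.2%) had a summit in their window, against 2.36% of all genes. In the whole pooled list it was 48 of 78 (61.5%), against 31.1% of all genes. The whole list holds background by construction, with q values (the estimated share of false calls) of up to 0.961, and 15 members (19.2%) had a pooled region with a q under 0.05, against 1.02% of all genes. The column was read as q from the file layout alone. The median pooled rank of the 48 members was 1250.5 (quartiles 256.75 and 6163), and that of the 6169 other genes with a region was 9311 (quartiles 4096 and 14991). The 48 members stood on 45 regions, since 3 pairs shared theirs.

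**Figure D2:**
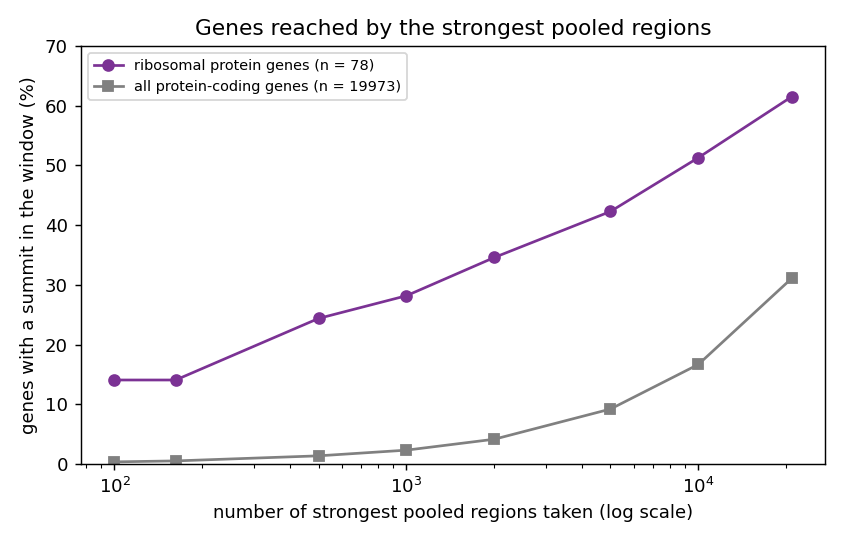
Percentage of genes with a summit in the promoter window when the strongest 100 to 20876 pooled regions are taken (log axis), for the 78 ribosomal protein genes (circles) and all 19973 protein-coding genes (squares). The members' line stands at 14.1% for the strongest 162 regions and 61.5% for the whole list, and that of all genes at 0.561% and 31.1%.

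In the replicate lists of 30000 regions each, 52 of 78 members (66.7%) had a region in replicate 1, against 41.4% of all genes. In replicate 2 it was 54 of 78 (69.2%), against 41.3%. A region in both replicates, whether or not at the same place in the window, was found for 40 members (51.3%), against 20.3% of all genes. A further 12 (15.4%) had one in replicate 1 alone, against 21% of all genes, and 14 (17.9%) in replicate 2 alone, against 20.9%. These shares were not above those of all genes. The strongest of the former were rps-11, rps-28 and rps-29, at ranks 278, 347 and 3406 of replicate 1. The strongest of the latter were rpl-32, rpl-7 and rpl-9, at ranks 329, 1492 and 3408 of replicate 2.

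Among members with a region in both replicates, the ranks ran together when the bound members were included, but little among the weaker ones. Across the 40 members in both lists, Spearman's rho of the ranks was 0.55. Across the 29 of them outside the final list it was 0.07. Across the 4024 other genes with a region in both replicates it was 0.18. These values describe genes of the same 2 libraries, not replicates of a condition, some of which share a region, and the final list was itself selected on pooled signal. The strongest region was taken in each replicate separately, so the 2 ranks of a gene can belong to different regions. The summits of the 2 replicates were 0 to 53 bp apart at the bound members (median 21 bp), and a median of 119 bp apart at the 29 others. Of these 29, 12 had summits more than 170 bp apart, and the largest distance was 890 bp. At genes outside the family the median distance was 287 bp.

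**Figure D3:**
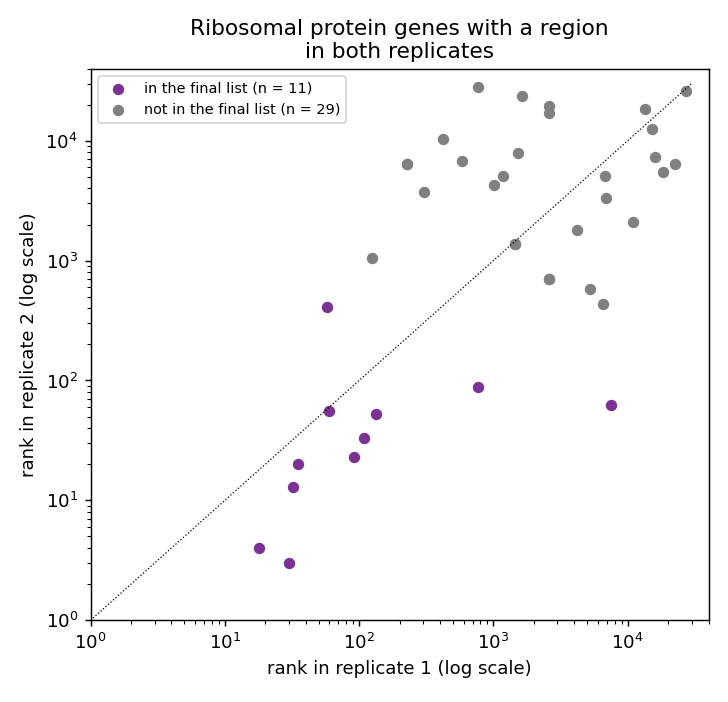
Rank of the strongest region in replicate 1 (x axis) and in replicate 2 (y axis), both on log axes, for the 40 ribosomal protein genes with a region in both. Purple points are the 11 bound genes, of which 10 lie below the dotted line of equal ranks, and grey points are the 29 others.

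Summits stood at a narrow range of distances upstream of the annotated starts. At all 11 bound members the summit was upstream, from -422 to -70 bp with a median of -291 bp (quartiles -320 and -203.5). The 101 other bound genes, neighbours that share a member's region among them, had a median of -236 bp and quartiles of -478 and -142. Of these 101 genes, 95 (94.1%) also had the summit upstream, and 69.3% had it within 500 bp upstream. Of the 48 members in the pooled list, 42 (87.5%) had the summit within 500 bp upstream, compared with 39.5% of the other 6169 genes. The quartiles were -375.75 and -243.75 for the members and -586 and 67 for the other genes, so the interquartile range was 132 bp for the members and 653 bp for the other genes. Among genes reached by the strongest 1000 regions these ranges were 107 bp for 22 members and 449 bp for 449 other genes. One pooled summit lay downstream of the start, at rpl-14 (45 bp). The position class of the 11 bound summits was intergenic for 10, and that of rps-1 lay in an exon of a noncoding RNA gene.

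**Figure D4:**
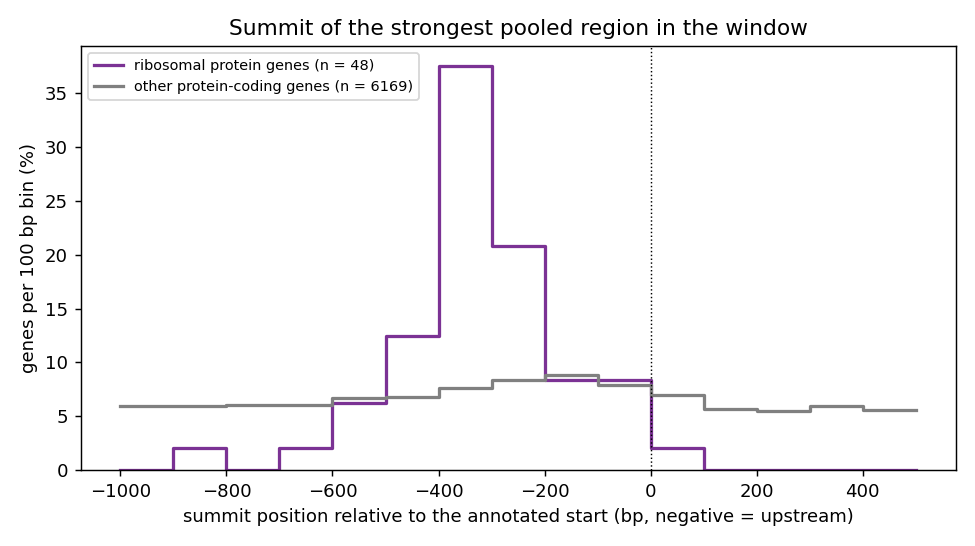
Position of the summit of the strongest pooled region relative to the annotated start (x axis, negative is upstream) as the percentage of genes per 100 bp bin (y axis), for 48 ribosomal protein genes (purple) and 6169 other genes (grey). The bin from -400 to -300 bp holds 18 members (37.5%) and 7.60% of the other genes.

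Most bound promoters were shared with a neighbour transcribed the other way. At 9 of the 11 bound members the summit also lay in the window of another gene, and at 5 of these it was nearer to the other gene's start. These were rpl-20 with Y17G9B.5, rps-19 with hsr-9, rps-20 with ekl-4, rps-15 with F36A2.9 and rps-12 with ska-3. The member was the nearer one for rpl-12 with lin-54, whose product is the DNA-binding subunit of the DREAM complex, for rps-1 with ifet-1, rpl-7A with set-21 and rpl-15 with K11H12.8. The promoters of rpl-3 and rpl-35 were the 2 of the 11 that no other window reached. Sharing was not limited to bound members. Of all 48 members with a pooled region, 34 had its summit in the window of another gene, the 9 bound ones included. The share among genes outside the family is not given here. A divergent start within 1000 bp upstream was present for 9 of 11 bound members (81.8%), 38 of 67 other members (56.7%), 39.6% of the 101 other bound genes and 17.6% of all genes outside the family. A divergent upstream gene at any distance was present for 10 of 11 bound members (90.9%) and 43 of 67 other members (64.2%). It was present for 54.5% of the other bound genes and 45.3% of all genes outside the family. The 101 other bound genes include the 9 neighbours that share a member's region. Each of these has the member's start within 1000 bp by this arrangement, so these promoters count on both sides. The differences were not tested. A peak list cannot assign a region between divergent starts to either gene.

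A gene on the same strand that ended less than 500 bp upstream, the arrangement in which worm genes of an operon lie, was found for 0 of 11 bound members, 2 of 37 with a weaker pooled region, 3 of 18 with a replicate region alone and 3 of 12 with no region. The last 3 were rpl-25.1, with 98 bp to glit-1, rpl-27, with 120 bp to C53H9.2, and rps-16, with 110 bp to fib-1, the gene of the ribosomal RNA methyltransferase fibrillarin. Across all 78 members it was found for 8 (10.3%). Among genes outside the family the share was 18.1%, and among the 101 other bound genes it was 15.8%. These counts are small and were not tested. The distance of 500 bp was chosen after the data were seen.

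No region in any of the 3 candidate lists was present for 12 members, namely rpl-18, rpl-21, rpl-22, rpl-25.1, rpl-25.2, rpl-27, rpl-34, rpl-37, rpl-41.2, rps-6, rps-9 and rps-16. Of the large subunit these were 9 of 47 and of the small subunit 3 of 31. Absence from each list was more frequent among all genes. A region was present for 41.4% of all genes in replicate 1, 41.3% in replicate 2 and 31.1% in the pooled list. For members these shares were 66.7%, 69.2% and 61.5%. The protein of rps-6 is a known substrate of S6 kinase in mammals. A further 18 members had a region in the replicate lists but none in the pooled one. The shares of all genes with no region at all, or with a replicate region but no pooled one, are not given here. Absence from a list says only that no region passed the authors' ranking, since depth is unknown.

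Genes with numbered copies did not share a pattern. The copies rpl-24.1 and rpl-24.2 had pooled ranks of 466 and 548. For rpl-11.2 the rank was 1045, whereas rpl-11.1 had a region in replicate 1 alone, at rank 22625. Both rpl-25.1 and rpl-25.2 had none. The neighbouring copies rpl-41.1 and rpl-41.2 had a pooled rank of 13717 and no region. Reads of near-identical copies may not be placed uniquely, and how the authors treated them is not given in the sources used here.

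The bound members lay on 3 chromosomes. Chromosome III held 4 of 18 members bound (0.871% of all its genes), chromosome IV 4 of 17 (0.518%) and chromosome I 3 of 23 (0.938%). Chromosome II had 0 of 10 (0.609%), chromosome V 0 of 8 (0.34%) and chromosome X 0 of 2 (0.256%). A pooled region was present for 14 of 18 members on chromosome III (77.8%), where 33.1% of all genes had one, and for 13 of 17 on chromosome IV (76.5%, all genes 30.9%). On chromosome II it was 6 of 10 (60%, all genes 29.5%), on chromosome I 11 of 23 (47.8%, all genes 35.1%) and on chromosome X 1 of 2 (50%, all genes 31.3%). On chromosome V it was 3 of 8 (37.5%, all genes 28.9%), and the best rank among them was 7911. The counts are small and the chromosomes were not tested against each other.

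**Figure D5:**
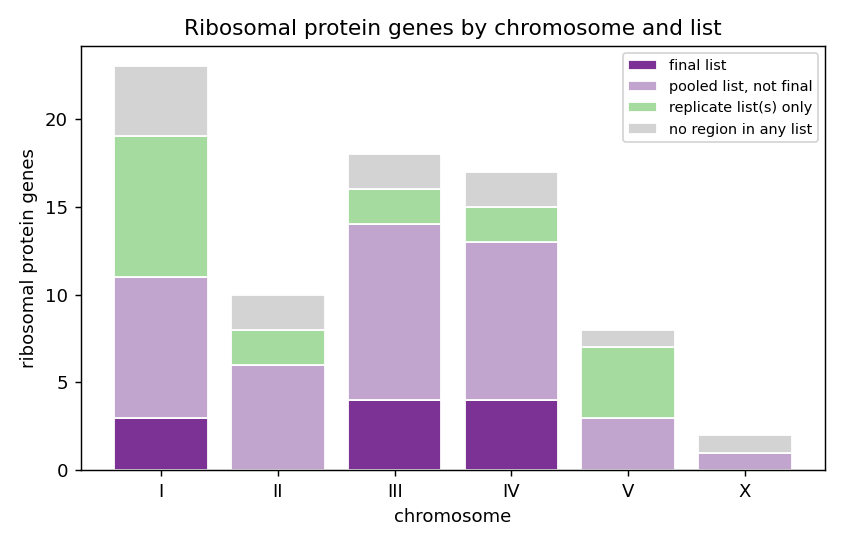
Number of ribosomal protein genes on each chromosome (bars from 0), split by the strongest list in which a region reached the window. Bound genes occur on chromosomes I, III and IV, and 12 genes had no region in any list.

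Other genes of the ribosome were read by the same rule. Ribosomal and ribosome-associated proteins with other names had 0 of 6 genes bound, and 3 had a pooled region. These were rack-1 at rank 1373, ubl-1, for a ubiquitin-like fusion protein, at rank 1946, and rla-1, for an acidic stalk protein, at rank 4368. The summit at rla-1 lay 413 bp downstream of the start. Mitochondrial ribosomal proteins had 1 of 70 genes bound, mrpl-55 (rank 147, signal 33.7), and 27 (38.6%) with a pooled region at a median rank of 9920. Ribosome biogenesis genes had 1 of 27 bound, pro-1, for a WD-repeat protein of ribosomal RNA processing (rank 113, signal 37.1). They had 11 (40.7%) with a pooled region, among them nath-10 at rank 223 and rpoa-1, for the largest subunit of RNA polymerase I, at rank 660. These lists share regions with the family, at lpd-7 with rpl-9 (rank 3073) and at mrpl-49 with rpl-28 (rank 14584). The share among all genes was 31.1% for the pooled list and 0.561% for the final list.

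Matches to 6 motifs were counted on both strands of the 340 bp regions. AGGTCA, the half-site of many nuclear receptors, was in 0 of the 11 bound regions, 9.27% of the 151 other final regions and 7.91% of all pooled regions. Of the 45 pooled regions of members, 1 held it (2.22%). CAAAGTCCA, the core of the HNF4 motif, was in 0 of 45, and in 0.211% of all pooled regions. CTGCGTCTC was in 0 of 11 bound regions, in 3 of the 34 weaker ones (8.82%), in 12.6% of the other final regions and in 1.93% of all pooled regions. TATAAA was in 3 of the 11 (27.3%), 35.8% of the other final regions and 38.1% of all pooled regions. GAGAGA was in 2 (18.2%), against 37.1% and 17.7%, and GGCGGG in 1 (9.09%), against 5.3% and 4.96%. With 11 regions these shares are coarse. In the 300 bp from 250 bp upstream to 50 bp downstream of the starts, AGGTCA was in 7.69% of members and 8.27% of all genes, and TATAAA in 26.9% and 37.9%. The bound regions had a median of 36.5% G and C, and the other final regions 37.4%.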

How the data were processed

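The data were ChIP-seq region lists of eGFP-tagged NHR-28 in 2 biological replicates of L3 larvae. Regions and background were called by the authors from each replicate and from both pooled, against a control, and the final list was kept by the irreproducible discovery rate, per the file list deposited with the data. No caller, aligner or threshold is named in the labels or headers. The deposited signal ranked regions within each list, and q was computed from a deposited column taken as −log10 of the q-value from the narrowPeak layout, since no caller is stated. Every region of a list had 1 width and its summit in the middle. Build ce10 lists were not used.

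The 4 ce11 lists were joined to Ensembl release 115 (WBcel235, chromosome ends checked) and the RefSeq genome of that assembly with Python 3.11.15, pandas 2.3.3 and scipy 1.17.1. The 5′ end of each gene was its start, a region counted for every gene whose window held its summit, and a member kept its strongest region. Counts were read against all 19973 nuclear genes, and no test was run, since the series has 1 group. The window search was tested on simulated data. The members and lists were chosen with earlier results of these data known. Named were all bound members, the 8 strongest pooled ones outside the final list, the 3 strongest of each replicate alone, members without a region and bound genes of the other lists. Any other gene was named with its values known, as were the 8-letter words. The names rpa-1 and rpa-2 were left out of the other ribosomal proteins, because in this annotation they denote replication protein A.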

Additional observations from a re-analysis of the deposited data

How the results depend on the processing

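The 11 bound members were counted again under other rules. Windows of 500 bp upstream to 200 bp downstream or 2000 bp upstream to 500 bp downstream, any overlap by at least 1 bp and the start of every protein-coding transcript each gave 11 of 78, and dropping the lettered names gave 10 of 76. Assigning each region to the nearest start alone left 6 of 78 (0.411% of all genes), with rpl-20, rps-12, rps-15, rps-19 and rps-20 moved to a neighbour. The final regions above their median signal held 9. Without replicate 1, taking the 162 strongest nuclear regions of replicate 2, 10 were bound, rps-12 being lost. Without replicate 2 it was also 10, with rpl-7A and rps-1 lost and rps-23 gained. With regions of a q under 0.05 alone, if the column holds q as its layout implies, the members with a region fell to 15 in the pooled list (1.02% of all genes), 21 in replicate 1 (2.99%), 13 in replicate 2 (1.22%) and 10 in both (0.551%). Across the other windows and the overlap rule these counts were 44 to 53, 42 to 57, 47 to 60 and 32 to 47 (main values 48, 52, 54 and 40). The shares of all genes moved further, from 17.4% to 43.6%, 23.3% to 56.3%, 23.5% to 56.4% and 7.93% to 35.4%. In the wider window replicate 1 reached 73.1% of members against 56.3% of all genes. The median pooled rank was 997.5 in the narrower window, and the median bound summit stayed at -291 bp with the nearest transcript start. No paired analysis was possible because the series has 1 group. Depth is unknown, so it is not known how many absent members deeper sequencing would add.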

Other observations

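Small nucleolar RNA genes, whose products guide the modification of ribosomal RNA, lay on the same strand inside 13 of 78 ribosomal protein genes (16.7%), 19 such genes in all, and inside 0.734% of the genes outside the family. The hosts were 3 of the 11 bound members (rpl-15, rpl-7A and rps-12), 6 of the 37 with a weaker pooled region, 4 of the 18 with a replicate region alone and 0 of the 12 with no region. These counts are small and were not tested. A microRNA gene, cel-mir-354, lay inside rps-20, and mir-353 inside rpl-24.1.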
